A study of Mus musculus with 6 samples.

Results

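The genes described here are those of the interleukin-1 (IL-1) system and its inflammasome. The 10 members are the ligand genes Il1a, Il1b and Il18, the antagonist gene Il1rn, the receptor genes Il1r1, Il1rap and Il1r2, and the activating machinery Nlrp3, Pycard and Casp1. They were taken by gene symbol, and all 10 were found, each in 1 row, among 30733 symbols. RNA was sequenced from wild-type mouse bone marrow cells that the labels call haematopoietic stem cells (HSCs), the self-renewing source of blood. All mice had received total body irradiation of 5 Gy, and the sorted cells were either MHCII-hi (3 libraries) or MHCII-lo (3 libraries), after the antigen-presenting molecule MHC class II. Genotype, irradiation and tissue did not differ between the groups, and no unirradiated group was used here. The sources used here state neither the age of the mice, nor the time from irradiation to sorting, nor the sort gates. Nor do they say whether each replicate is a separate mouse, so that p-values speak only of the spread among these libraries, possibly a technical one.

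IL-1 is an alarm cytokine of myeloid cells. IL-1 alpha and IL-1 beta bind the signalling receptor IL1R1, which needs the accessory chain IL1RAP and passes the signal through MyD88 to NF-kB. The antagonist encoded by Il1rn occupies the receptor without signalling, and the decoy receptor encoded by Il1r2 binds the ligand but lacks a signalling domain. IL-1 beta and IL-18 are made as inactive precursors and are cut by caspase-1, which is switched on in an inflammasome built from a sensor such as NLRP3 and the adaptor ASC, the product of Pycard. In the marrow, IL-1 is known to push HSCs towards myeloid differentiation, and Il1b and Il1r2 are known to be strongly transcribed in neutrophils and monocytes.

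Il1b and Il1r2 differed most among the members, and each lies beside a relative that did not fall with it, so the sequence before the start site is shown for both pairs. Il1a and Il1b lie close together on the minus strand of chromosome 2, as Il1r2 and Il1r1 do on the plus strand of chromosome 1. The RefSeq start of Il1r2 lies inside the span that GENCODE gives the gene. Each line holds the 250 bases upstream of a RefSeq start site in GRCm38.p6, 5′ to 3′ on the gene's own strand, with matches to the motifs named next in capitals.
Il1b, chr2:129371140-129371389, minus strand: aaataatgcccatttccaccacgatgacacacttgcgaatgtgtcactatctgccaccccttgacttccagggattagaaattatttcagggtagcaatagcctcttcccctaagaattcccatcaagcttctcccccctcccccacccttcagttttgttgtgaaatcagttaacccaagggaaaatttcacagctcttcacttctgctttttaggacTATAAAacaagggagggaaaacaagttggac
Il1a, chr2:129309973-129310222, minus strand: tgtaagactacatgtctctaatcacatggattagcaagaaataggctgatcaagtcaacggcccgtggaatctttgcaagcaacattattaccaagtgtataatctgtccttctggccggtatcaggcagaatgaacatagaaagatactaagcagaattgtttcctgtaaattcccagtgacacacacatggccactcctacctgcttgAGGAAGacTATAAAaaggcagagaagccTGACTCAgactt
Il1r2, chr1:40085843-40086092, plus strand: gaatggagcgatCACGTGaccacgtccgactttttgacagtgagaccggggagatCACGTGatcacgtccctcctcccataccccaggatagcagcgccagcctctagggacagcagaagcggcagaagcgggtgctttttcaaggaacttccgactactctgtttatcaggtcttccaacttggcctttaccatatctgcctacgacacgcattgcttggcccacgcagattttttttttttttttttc
Il1r1, chr1:40224830-40225079, plus strand: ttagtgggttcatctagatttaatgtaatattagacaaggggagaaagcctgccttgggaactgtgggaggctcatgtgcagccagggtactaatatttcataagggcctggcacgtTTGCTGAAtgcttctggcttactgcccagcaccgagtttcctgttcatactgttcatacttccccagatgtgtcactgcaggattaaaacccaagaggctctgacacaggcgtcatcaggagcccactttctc

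All 10 members had an entry in the RefSeq promoter table. The motifs were searched on both strands in all 32851 upstream windows of that table, and a match is only a run of letters. The TATA box TATAAA, held by 12.4% of all windows, stood at positions -31 to -26 from the start site in Il1b and at -32 to -27 in Il1a. Il1a also held the AP-1 motif TGANTCA (6.75% of windows) at -12 to -6 and the ETS motif AGGAAG (29.5% of windows) at -40 to -35. Il1r2 held the E-box CACGTG (6.02% of windows) at -238 to -233 and at -195 to -190, a motif that was added after the sequence was seen. The first start site of Il1r1 had a C/EBP match, TTGCNNAA (9.56% of windows), at -133 to -126. The NF-kB consensus (7.25% of windows) and the PU.1 motif GAGGAAGT (2.44% of windows), which contains the ETS motif, had no match in these 4 windows. Among the other members, the NF-kB consensus was matched upstream of a start site of Nlrp3 and of the second start site of Il1r1, and the PU.1 motif upstream of Pycard.

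Levels are in FPKM, fragments per kilobase of transcript relative to library depth, given as mean ± SD with n = 3 libraries per group. A log2 change is the MHCII-hi mean less the MHCII-lo mean of log2(FPKM + 1), a scale that understates changes in low genes. A gene passed when its adjusted p in limma, with Benjamini-Hochberg adjustment over all 12110 genes tested, was under 0.05, and genes were tested when their mean over the 6 libraries reached 1 FPKM. Read totals were not in the tables, so depth was estimated from the smallest steps between values, at 2.06e+07 to 3.25e+07 fragments a library. The libraries differed widely: 58.6% of tested genes passed (25.5% of tested genes higher and 33.1% lower in MHCII-hi), and the groups did not overlap for 65.8%, with 29% entirely higher and 36.8% entirely lower in MHCII-hi. Immunoglobulin genes made up 23.4 to 23.7% of all FPKM in the MHCII-hi libraries, against 0.493 to 0.502% in MHCII-lo. FPKM is relative to library depth, so a larger share leaves less depth to the other genes, by an amount that was not measured. When each library was scaled without immunoglobulin genes, the median change of all genes moved by 0.15. Of the genes that then passed, 69.9% were higher in MHCII-hi, in place of 43.5%. With that scaling weighted by exon length, the median moved by 0.075 and 56.7% of the genes that passed were higher. The class II invariant chain gene Cd74 stood at 359 ± 6.82 FPKM in MHCII-hi and 12.8 ± 0.405 FPKM in MHCII-lo, as the labels have it. Of 13 HSC markers, 7 lay below the minimum for testing, among them Slamf1, Procr, Mecom and Fgd5, which reached at most 0.72 FPKM in any library of MHCII-hi and 0.40 FPKM in any library of MHCII-lo. Of the 6 tested, 4 rose, 1 fell (Hoxa9) and 1 did not pass (Hlf). Those that rose were the surface marker gene Ly6a (35.5 ± 2.74 FPKM in MHCII-hi, 2.50 ± 0.193 FPKM in MHCII-lo), the receptor gene Kit (15.0 ± 0.101 FPKM in MHCII-hi, 12.6 ± 0.0751 FPKM in MHCII-lo), Meis1 and Mllt3. The neutrophil gene S100a9 stood at 6575 ± 127 FPKM in MHCII-hi and 16860 ± 163 FPKM in MHCII-lo, an abundant transcript in cells labelled as HSCs.

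Of the 10 members, 9 were tested and all 9 passed: 3 rose in MHCII-hi (Il18, Il1r1 and Nlrp3) and 6 fell (Il1b, Il1rn, Il1rap, Il1r2, Pycard and Casp1). The groups did not overlap for any of the 10, with Il1a on the higher side. Read against the 58.6% of all tested genes that passed (25.5% higher, 33.1% lower) and the 29% and 36.8% that did not overlap, this count says little by itself, and most of the changes were small. Il1b and Il1r2 stood out in size, with only 10 and 39 of the 12110 tested genes falling further. The median change of the 9 tested members was -0.25, against -0.04 over all tested genes. Il1a, the tenth member, lay below the minimum for testing. No member changed direction under any scaling tried, but the calls of Il1rn, Casp1, Il18 and Il1r1 depended on the scaling.

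**Figure D1:**
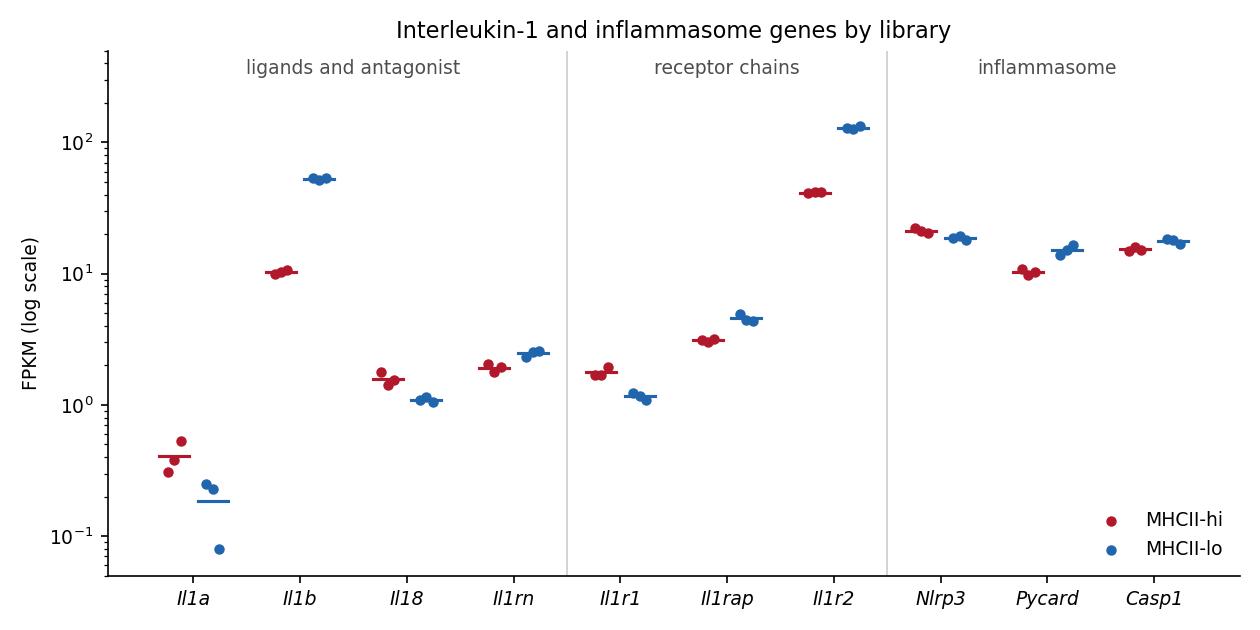
FPKM of the 10 members on a log axis, 1 point per library and a bar at the group mean (n = 3), with MHCII-hi left of MHCII-lo for each gene. Il1b at about 10.3 against 52.9 FPKM and Il1r2 at 41.4 against 130 FPKM are the widest gaps, while Casp1 and Nlrp3 lie close together in the groups.

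Markers of other marrow cells moved beside these members. Their counts are to be read against the 25.5% of all tested genes that rose and the 33.1% that fell. All 15 neutrophil markers of the list used here were tested and fell, with log2 changes between -2.04 and -0.53 and a median of -1.33 (all 15 under every scaling tried), and their summed level was 16396.8 to 16800.5 FPKM in the MHCII-hi libraries and 40449 to 41120 FPKM in the MHCII-lo libraries. Il1b fell further than each of the 15, and 3 of them fell further than Il1r2. The 8 neutrophil progenitor markers found in the files fell too (with immunoglobulin genes left out of the scaling, 6 fell and 1 rose), with a summed level of 4359 to 4477 FPKM in MHCII-hi and 6160 to 6297 FPKM in MHCII-lo. Of 12 tested monocyte and macrophage markers 4 rose, 7 fell and 1 did not pass. Their list summed to 2334 to 2403 FPKM in MHCII-hi and 3368 to 3388 FPKM in MHCII-lo. Most of this sum was Lyz2 (1762.5 ± 28.9 FPKM in MHCII-hi, 2652 ± 15.4 FPKM in MHCII-lo). Of the 4 markers below the minimum for testing, C1qa, C1qb and C1qc were higher in MHCII-hi without overlap, and Mertk overlapped. All 4 were low, with C1qb the highest (1.29 ± 0.329 FPKM in MHCII-hi, 0.29 ± 0.351 FPKM in MHCII-lo). All 8 tested dendritic cell markers rose, summing to 81.8 to 91.1 FPKM in MHCII-hi and 35.0 to 35.6 FPKM in MHCII-lo. So did 9 of 10 plasma cell markers, summing to 1544 to 1556 FPKM in MHCII-hi and 106 to 110 FPKM in MHCII-lo. Most of the plasma cell sum in MHCII-hi was Jchain (1342 ± 13.0 FPKM, against 14.2 ± 1.45 FPKM in MHCII-lo). The basophil, mast cell and eosinophil list summed to 8360.0 to 8528.7 FPKM in MHCII-hi and 3266 to 3308 FPKM in MHCII-lo, and 12 of its 13 tested markers rose. All 5 tested B cell markers rose (sums of 62.6 to 64.0 FPKM in MHCII-hi, 7.27 to 9.14 FPKM in MHCII-lo). So did 11 of 12 T and NK cell markers (228 to 239 FPKM in MHCII-hi, 169 to 178 FPKM in MHCII-lo). Most of the T and NK sum was Nkg7, which did not pass (148 ± 3.42 FPKM in MHCII-hi, 150 ± 3.99 FPKM in MHCII-lo). Of 9 megakaryocyte and platelet markers 6 rose and 3 did not pass (190.5 to 193.8 FPKM in MHCII-hi, 94.0 to 97.6 FPKM in MHCII-lo). Of 9 erythroblast markers 7 fell, 1 rose and 1 did not pass (198 to 202 FPKM in MHCII-hi, 354 to 364 FPKM in MHCII-lo). No marker of these lists was listed at 0 in all libraries of a group. The part of these cell types in the changes of the members was not tested.

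Among the ligands, Il1b, the gene of the secreted cytokine IL-1 beta, fell most. The MHCII-hi libraries held 9.90, 10.23 and 10.63 FPKM of Il1b, against 53.25, 51.98 and 53.51 FPKM in MHCII-lo. Spread within a group was slight, and every MHCII-hi library lay far below every MHCII-lo library. The mean was 10.3 ± 0.366 FPKM in MHCII-hi and 52.9 ± 0.819 FPKM in MHCII-lo, a 5.16-fold fall (log2 change -2.26, SE 0.03, limma adjusted p = 1.74e-08). Il1b spans chromosome 2 from 129364570 to 129371139. The antisense gene Il1bos overlaps it and stood at 0.16 ± 0.0361 FPKM in MHCII-hi and 0.19 ± 0.0985 FPKM in MHCII-lo, far below the sense gene. In sorted bulk cells, fewer cells that transcribe Il1b and less Il1b RNA per cell cannot be told apart.

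Il1a encodes IL-1 alpha, the ligand that is active without caspase-1, and it was almost silent. Its level was 0.31, 0.38 and 0.53 FPKM in MHCII-hi, against 0.25, 0.23 and 0.08 FPKM in MHCII-lo. The groups did not overlap, with MHCII-hi above. At the estimated depth these values rest on about 15.4 to 24.3 fragments in the MHCII-hi libraries and 3.85 to 11.1 fragments in the MHCII-lo libraries, and Il1a did not pass when genes of any level were tested (adjusted p = 0.0863, limma). The non-coding gene Gm14023 overlaps Il1a on the other strand and was about as low, at 0.10 ± 0.10 FPKM in MHCII-hi and 0.287 ± 0.0252 FPKM in MHCII-lo. Il1a lies at 129299610 to 129309972 on chromosome 2.

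Il18, the gene of the other caspase-1 substrate and an inducer of interferon gamma in T and NK cells, was low and rose. The MHCII-hi libraries held 1.77, 1.41 and 1.56 FPKM of Il18, against 1.09, 1.14 and 1.06 FPKM in MHCII-lo, with no overlap (log2 change 0.30, SE 0.08, limma adjusted p = 0.0178). The rise rests on an estimated 25.7 to 50.9 fragments per MHCII-hi library and 21.7 to 24.6 per MHCII-lo library. It did not pass without MHCII-hi replicate 1 (adjusted p = 0.0644), without MHCII-lo replicate 3 (0.0519) or under quantile normalization (0.227), all in limma. Il18 lies on chromosome 9 from 50554827 to 50581840 and is overlapped on the other strand by the coding genes Bco2, which stood at 0.493 ± 0.192 FPKM in MHCII-hi and 0.50 ± 0.128 FPKM in MHCII-lo, and Tex12, which was listed at 0 in all 6 libraries.

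Il1rn, the gene of the receptor antagonist, fell slightly. Its level was 2.05, 1.79 and 1.93 FPKM in MHCII-hi, against 2.33, 2.52 and 2.57 FPKM in MHCII-lo, and the groups did not overlap (log2 change -0.25, SE 0.07, limma adjusted p = 0.0152). The fall did not pass when libraries were scaled without immunoglobulin genes (adjusted p = 0.138), with upper-quartile scaling (0.115) or without MHCII-lo replicate 3 (0.0523), all in limma. It passed when the scaling without immunoglobulin genes was weighted by exon length (limma adjusted p = 0.0429). Il1rn lies on chromosome 2 from 24336853 to 24351494, apart from Il1a and Il1b. RefSeq gives it 3 start sites, from which secreted and intracellular forms are known to arise, and the gene-level values do not separate them.

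**Figure D2:**
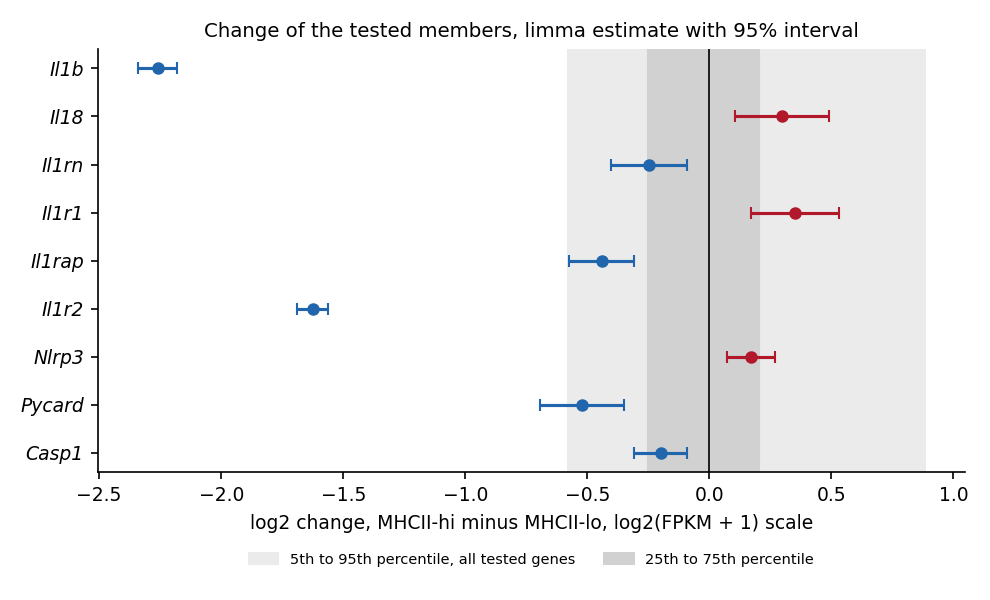
Limma estimates of the log2 change (MHCII-hi minus MHCII-lo) of the 9 tested members with 95% intervals, over grey bands that hold the 5th to 95th and 25th to 75th percentiles of all 12110 tested genes. Il1b (-2.26) and Il1r2 (-1.62) lie far left of the wide band, which ends at -0.58, and the other 7 lie inside it.

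Among the receptors, the decoy gene Il1r2 was by far the most abundant member of the whole set. The MHCII-hi libraries held 40.92, 41.78 and 41.64 FPKM of Il1r2, against 129.10, 126.97 and 133.66 FPKM in MHCII-lo. The MHCII-hi libraries lay within 1 FPKM of each other, and every one was below every MHCII-lo library. Mean Il1r2 was thus 3.13-fold lower (log2 change -1.62, SE 0.03, limma adjusted p = 2.51e-08). Il1r2 spans 40074079 to 40125231 on chromosome 1, and the antisense gene Gm16894 within that span stood at 0.55 ± 0.21 FPKM in MHCII-hi and 0.733 ± 0.23 FPKM in MHCII-lo.

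The signalling receptor gene Il1r1 went the other way at a level far below that of the decoy. Its level was 1.69, 1.68 and 1.93 FPKM in MHCII-hi, against 1.24, 1.18 and 1.09 FPKM in MHCII-lo. The groups did not overlap, and MHCII-hi was 1.51-fold higher (log2 change 0.35, SE 0.08, limma adjusted p = 0.00655). Its rise did not pass under quantile normalization (log2 change 0.19, adjusted p = 0.0648). Il1r1 spans 40225080 to 40317257 on chromosome 1.

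Il1rap, the accessory chain that IL-1, IL-33 and IL-36 receptors share, fell. The 3 MHCII-hi libraries held 3.14, 3.01 and 3.18 FPKM of it, against 4.91, 4.47 and 4.37 FPKM in MHCII-lo, again with no overlap (log2 change -0.44, SE 0.06, limma adjusted p = 5.56e-04). It spans chromosome 16 from 26581704 to 26730117. Il1rap is known to make membrane and soluble forms, which a value per gene cannot separate.

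Of the inflammasome genes, the sensor gene Nlrp3 was slightly higher and the adaptor and protease genes were lower in MHCII-hi. Nlrp3 (chromosome 11, 59541568 to 59566956) reached 22.18, 21.22 and 20.49 FPKM in MHCII-hi, against 18.68, 19.46 and 18.22 FPKM in MHCII-lo. The gap between the groups was small but free of overlap, 1.13-fold (log2 change 0.17, SE 0.04, limma adjusted p = 0.0103), and the log2 change was 0.34 when libraries were scaled without immunoglobulin genes.

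Pycard, the gene of the adaptor ASC that links sensor and caspase, fell to 10.87, 9.70 and 10.32 FPKM in MHCII-hi, against 13.82, 15.28 and 16.65 FPKM in MHCII-lo (log2 change -0.52, SE 0.07, limma adjusted p = 8.66e-04). The groups did not overlap, and the MHCII-lo libraries were the more widely spread. Pycard spans chromosome 7 from 127989708 to 127993867.

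Casp1, the gene of the protease that cuts IL-1 beta and IL-18, reached 14.87, 16.08 and 15.26 FPKM in MHCII-hi, against 18.44, 18.11 and 16.96 FPKM in MHCII-lo. Its fall was 1.16-fold (log2 change -0.20, SE 0.05, limma adjusted p = 0.00828), and the nearest libraries of the groups were less than 1 FPKM apart. It did not pass when libraries were scaled without immunoglobulin genes (log2 change -0.03, adjusted p = 0.569), with that scaling weighted by exon length (adjusted p = 0.0738) or with upper-quartile scaling (adjusted p = 0.145), all in limma. Casp1 lies on chromosome 9 from 5298517 to 5307265.

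**Figure D3:**
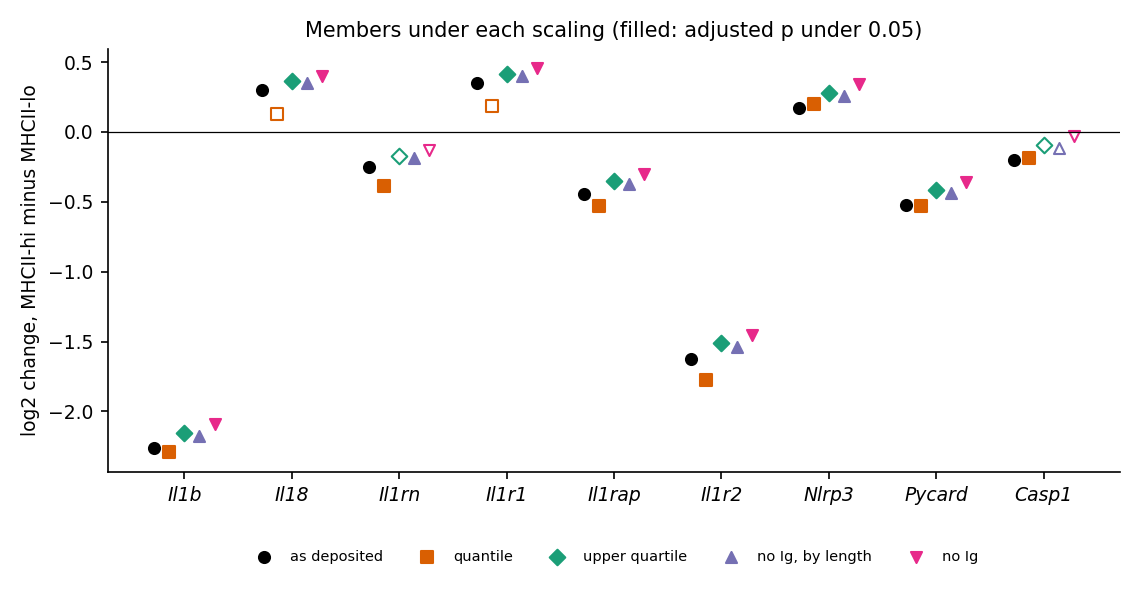
Log2 change (MHCII-hi minus MHCII-lo) of the 9 tested members as deposited and under 4 other scalings of the libraries, where "no Ig" means scaled to the summed FPKM without immunoglobulin genes and filled symbols passed limma. Every symbol of a gene lies on 1 side of 0, Il1b stays between -2.29 and -2.09, and Casp1 ends at -0.03 without immunoglobulin genes.

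The order of the members by level differed between the groups mainly through Il1b. FPKM is scaled by length, so levels can be compared between genes within a library. In MHCII-hi the order was Il1r2, Nlrp3, Casp1, Pycard, Il1b, Il1rap, Il1rn, Il1r1, Il18 and Il1a, and neighbours overlapped between Pycard and Il1b, Il1rn and Il1r1, and Il1r1 and Il18. In MHCII-lo the order was Il1r2, Il1b, Nlrp3, Casp1, Pycard, Il1rap, Il1rn, Il1r1, Il18 and Il1a, and only Nlrp3 with Casp1 and Il1r1 with Il18 overlapped. By mean level Il1b ranked 4542 among all symbols in MHCII-hi and 877 in MHCII-lo, and Il1r2 ranked 1116 in MHCII-hi and 352 in MHCII-lo.

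Ratios between members within a library do not change when all values of the library are scaled by a common factor. Quantile normalization is not of that kind and can change them. For all 6 ratios compared, the groups did not overlap. The two-sided exact permutation p was therefore 0.1, the smallest that 3 libraries against 3 can give (0.1 after Benjamini-Hochberg adjustment over the 6). For Il1r2 to Il1r1, Il1rap to Il1r1, Il18 to Il1b and Il1b to Il1a this outcome was fixed beforehand. The genes of each of these ratios lay apart in opposite directions, as given above. How often ratios of other gene pairs lie apart was not computed. Il1b exceeded its antagonist Il1rn by 4.83, 5.72 and 5.51 times in the MHCII-hi libraries and by 22.9, 20.6 and 20.8 times in the MHCII-lo libraries, a 4.01-fold lower ratio in MHCII-hi. The ratio of the decoy Il1r2 to the signalling receptor Il1r1 was 24.2, 24.9 and 21.6 in the MHCII-hi libraries and 104, 108 and 123 in the MHCII-lo libraries, 4.73-fold lower in MHCII-hi. The decoy therefore remained more than 20 times as abundant as the signalling receptor in every library.

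The accessory chain Il1rap was 1.86, 1.79 and 1.65 times as abundant as Il1r1 in the MHCII-hi libraries and 3.96, 3.79 and 4.01 times in the MHCII-lo libraries. The ratio of Il18 to Il1b averaged 0.154 ± 0.0215 in MHCII-hi, against 0.0207 ± 0.00109 in MHCII-lo, a 7.41-fold higher ratio in MHCII-hi. Casp1 was 1.37, 1.66 and 1.48 times as abundant as Pycard in the MHCII-hi libraries and 1.33, 1.19 and 1.02 times in the MHCII-lo libraries, the smallest of the 6 differences. The ratio of Il1b to Il1a was 31.9, 26.9 and 20.1 in the MHCII-hi libraries and 213, 226 and 669 in the MHCII-lo libraries. It is the least precise of the 6, because the few fragments of Il1a in MHCII-lo replicate 3 set the highest value.

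**Figure D4:**
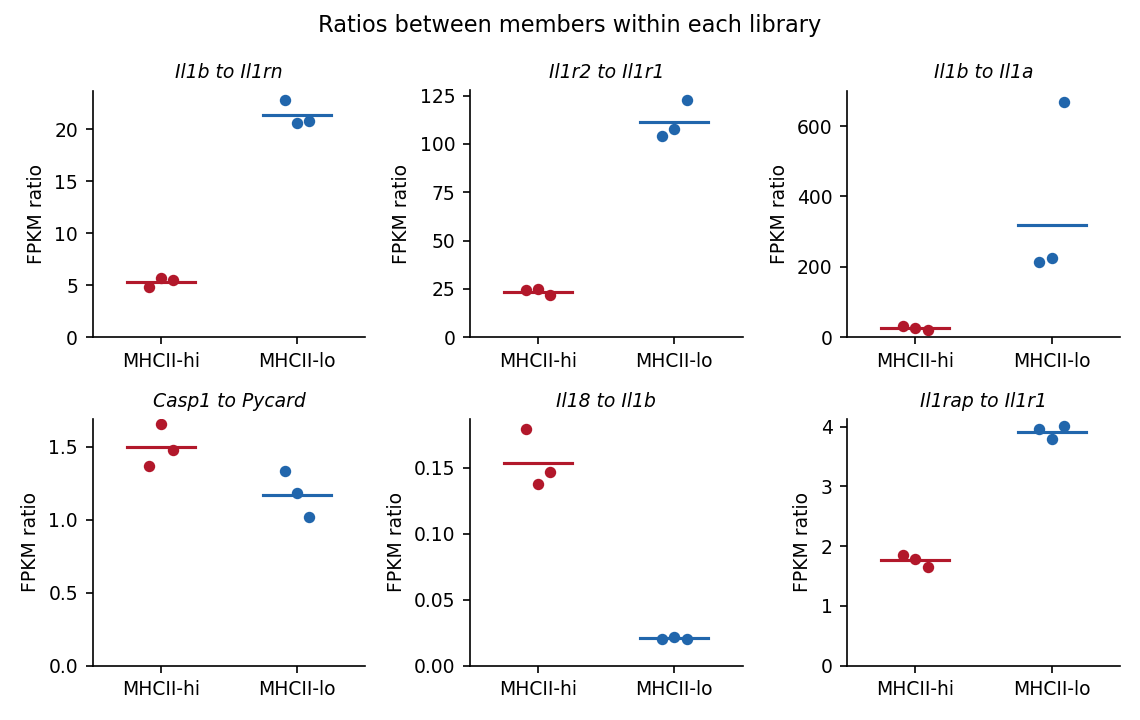
FPKM ratios between members within each library on linear axes that start at 0, 1 point per library and a bar at the geometric mean, MHCII-hi left of MHCII-lo. The ratios of Il1b to Il1rn and of Il1r2 to Il1r1 are 4.01-fold and 4.73-fold lower in MHCII-hi, and the ratio of Casp1 to Pycard differs least.

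The genes whose profile over the 6 libraries lay nearest to that of Il1b, by Euclidean distance of centred log2(FPKM + 1) values, were Steap4, Olfm4, Vcan, Mmp8 and Bst1, at distances of 0.08 to 0.29. Mmp8, a collagenase of neutrophil granules, stood at 144 ± 0.961 FPKM in MHCII-hi and 595 ± 6.90 FPKM in MHCII-lo, and Olfm4, a granule glycoprotein of a neutrophil subset, at 12.9 ± 0.476 FPKM in MHCII-hi and 64.7 ± 1.85 FPKM in MHCII-lo. The genes nearest to Il1r1, the member with the largest rise, were Frmd4a, Mxd4, Txndc16, Nsd1 and Ubn1, at distances of 0.04 to 0.07. With 2 groups and 6 libraries, such a likeness rests almost wholly on the difference between the groups.

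The counts of this list and of those below are to be read against the 25.5% of all tested genes that rose and the 33.1% that fell. In the wider IL-1 family of ligands and binding proteins, 5 genes were tested, of which 1 rose and 4 fell. Beside the members these were Il1f9, the older symbol of the IL-36 gamma gene, a neutrophil and epithelial cytokine, which fell to 19.6 ± 1.84 FPKM in MHCII-hi, against 38.9 ± 1.48 FPKM in MHCII-lo, and Il18bp, the secreted inhibitor of IL-18, which stood at 2.72 ± 0.166 FPKM in MHCII-hi and 4.48 ± 0.609 FPKM in MHCII-lo. Il33 was listed at 0 in all 3 MHCII-lo libraries and averaged 0.01 FPKM in MHCII-hi.

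Of the 8 receptor family genes tested, 4 rose, 3 fell and 1 did not pass. Of these, 6 lie in a row on the plus strand of chromosome 1, between 40074079 and 40551705, and they did not all move one way. From the start of the row, Il1r2 fell, Il1r1 rose, the IL-36 receptor gene Il1rl2 fell (2.40 ± 0.105 FPKM in MHCII-hi, 3.29 ± 0.352 FPKM in MHCII-lo), and the IL-33 receptor gene Il1rl1 rose (3.93 ± 0.325 FPKM in MHCII-hi, 2.33 ± 0.302 FPKM in MHCII-lo). Next, the IL-18 receptor gene Il18r1 rose (5.75 ± 0.331 FPKM in MHCII-hi, 3.28 ± 0.11 FPKM in MHCII-lo), and its partner Il18rap did not pass (21.2 ± 0.71 FPKM in MHCII-hi, 20.5 ± 0.405 FPKM in MHCII-lo). Il1rl2 did not pass with immunoglobulin genes left out of the scaling (log2 change -0.20, limma adjusted p = 0.0537), nor Il1r1 under quantile normalization, as given above. Il18rap passed as higher with immunoglobulin genes left out of the scaling (log2 change 0.22, limma adjusted p = 0.00183). It also passed with that scaling weighted by exon length (limma adjusted p = 0.0187) and with upper-quartile scaling (0.0311). Under each of these scalings 5 genes of the list rose, and under quantile normalization 3 rose. Sigirr, a receptor that dampens IL-1 signalling and lies elsewhere, rose to 5.73 ± 0.00577 FPKM in MHCII-hi, against 4.39 ± 0.179 FPKM in MHCII-lo.

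Downstream of the receptor, 20 signalling genes were tested, of which 9 rose, 3 fell and 8 did not pass, with a median log2 change of 0.11. The adaptor Myd88 fell to 23.3 ± 0.0961 FPKM in MHCII-hi, against 31.8 ± 0.943 FPKM in MHCII-lo (log2 change -0.43, limma adjusted p = 3.66e-05). The kinase gene Irak4 and the inhibitory Irak3 fell as well, with log2 changes of -0.25 and -0.26. The NF-kB kinase gene Ikbkb rose to 7.08 ± 0.0252 FPKM in MHCII-hi, against 5.42 ± 0.01 FPKM in MHCII-lo, and the NF-kB subunit gene Nfkb1 had a log2 change of 0.19. Over all tested genes, leaving immunoglobulin genes out of the scaling raised the median log2 change from -0.04 to 0.11. Under that scaling 15 of the signalling genes rose and 1 fell. With that scaling weighted by exon length 12 rose and 3 fell, with upper-quartile scaling 11 rose and 2 fell, and under quantile normalization 8 rose and 3 fell.

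Of 14 tested inflammasome sensors and activators, 7 rose, 4 fell and 3 did not pass, where 25.5% of all tested genes rose and 33.1% fell. Txnip, which can bind NLRP3, had the smallest p and rose to 58.2 ± 1.71 FPKM in MHCII-hi, against 35.6 ± 0.874 FPKM in MHCII-lo (log2 change 0.69, limma adjusted p = 4.83e-06). The flagellin sensors Naip5 and Naip6 rose, with log2 changes of 0.52 and 0.58, while Naip2, which senses a bacterial secretion protein, fell by 0.37, and these close copies can share reads. Nlrp12 fell to 1.09 ± 0.0681 FPKM in MHCII-hi, against 2.31 ± 0.0643 FPKM in MHCII-lo, and Nlrp1a fell with a log2 change of -0.31.

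Of 6 tested inflammatory caspases and pore formers, 1 rose, 3 fell and 2 did not pass, and with immunoglobulin genes left out of the scaling 3 rose and 1 fell. Casp8, an initiator caspase that can also cut IL-1 beta, rose (24.5 to 25.6 FPKM in MHCII-hi, 19.8 to 22.5 FPKM in MHCII-lo). Casp4, the mouse caspase-11 gene that senses bacterial lipopolysaccharide, fell (6.45 ± 0.107 FPKM in MHCII-hi, 7.75 ± 0.568 FPKM in MHCII-lo), as did the pore gene Gsdme (1.90 to 2.07 FPKM in MHCII-hi, 3.08 to 3.29 FPKM in MHCII-lo). Ninj1, which acts in membrane rupture, stood at 15.5 ± 1.32 FPKM in MHCII-hi and 14.1 ± 1.11 FPKM in MHCII-lo and did not pass. Gsdmd, the pore former cut by caspase-1, was chosen with its values known and stood at 28.5 ± 0.494 FPKM in MHCII-hi and 29.5 ± 1.07 FPKM in MHCII-lo (limma adjusted p = 0.277).

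A list of proteases that are known to cut IL-1 family cytokines outside the inflammasome, with inhibitors, held 11 genes. Of these 7 fell, 3 rose and 1 did not pass, with a median log2 change of -0.34. Card19, which is neither a protease nor a protease inhibitor, is among the 7 that fell (log2 change -0.25). The gelatinase Mmp9 stood at 83.3 ± 0.271 FPKM in MHCII-hi and 252 ± 2.26 FPKM in MHCII-lo (log2 change -1.58, limma adjusted p = 4.34e-09). The granule proteases Ctsg and Prtn3 had log2 changes of -1.12 and -0.45, and Serpinb1a, an inhibitor of such proteases, had -1.02. Mmp9, Ctsg, Prtn3 and Elane are also in the neutrophil lists given above, so this list is not separate from them. Among the genes that rose, Serpinb9, an inhibitor of granzyme B, and Capn2, a calpain subunit, had log2 changes of 0.51 and 0.17.

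Among genes that IL-1 and other NF-kB signals are known to induce, 18 were tested, of which 13 rose, 5 fell and 0 did not pass. Of all tested genes 25.5% rose and 33.1% fell. The median log2 change of the 18 was 0.75, against -0.04 over all tested genes. Feedback inhibitors of NF-kB were among those that rose. Tnfaip3, which encodes the ubiquitin-editing enzyme A20, stood at 91.2 ± 1.13 FPKM in MHCII-hi and 29.8 ± 0.283 FPKM in MHCII-lo (log2 change 1.58, limma adjusted p = 1.45e-08). Nfkbia, the gene of the inhibitor that holds NF-kB in the cytoplasm, stood at 195 ± 3.13 FPKM in MHCII-hi and 76.5 ± 1.77 FPKM in MHCII-lo. The ribonuclease gene Zc3h12a and the NF-kB cofactor gene Nfkbiz had log2 changes of 1.31 and 0.81. The genes that fell were the monocyte chemokine gene Ccl2 (log2 change -0.90), the NF-kB cofactor gene Bcl3 (-0.81), and the myeloid transcription factor genes Cebpd (-0.57), Spi1 (-0.52) and Cebpb (-0.25). These genes answer to many signals besides IL-1, and the data hold no measure of IL-1 protein or signalling.

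**Figure D5:**
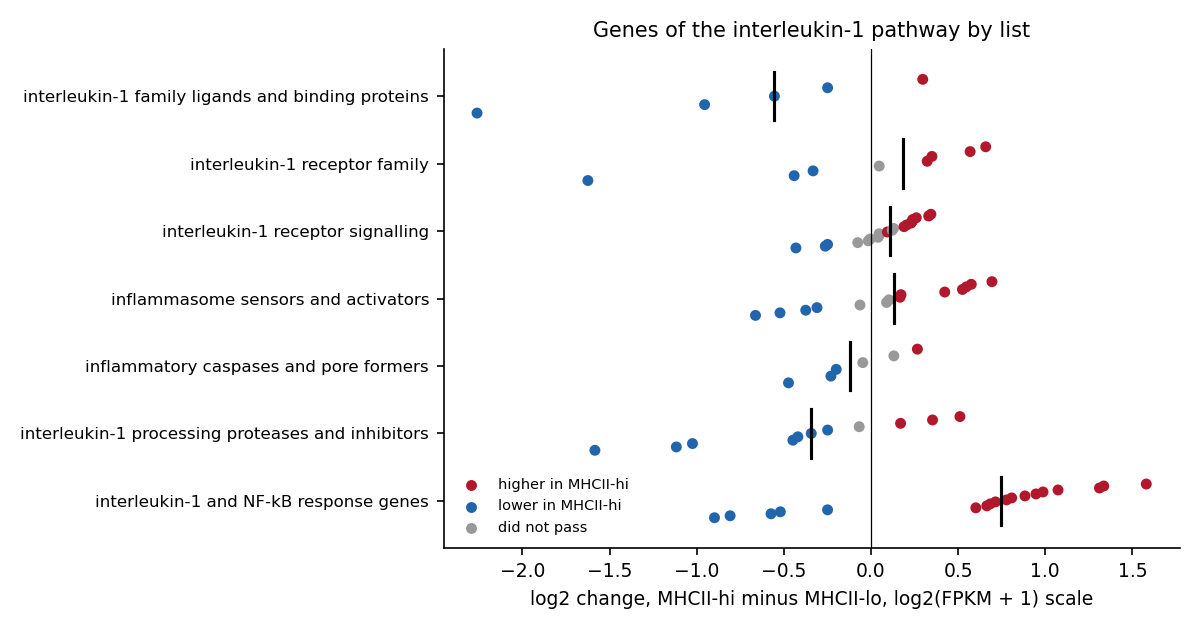
Log2 change (MHCII-hi minus MHCII-lo) of each tested gene in 7 lists of the IL-1 pathway, 1 point per gene, with a black bar at the list's median. The response genes have the highest median, at 0.75, and the ligands with their binding proteins the lowest, at -0.55.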

How the data were processed

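Stranded mRNA libraries were sequenced, per the labels' protocols. FPKM values per gene were made by the authors from reads handled with fastp, HISAT2 and StringTie on GRCm38 (mm10), tools and build that the submitters' processing notes list. The sources used here state no settings, strand use or annotation, and the file headers name no unit, so FPKM was read from the values.

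Of 30803 rows, 70 with a repeated symbol were dropped in favour of the row of highest mean. The single contrast was tested with limma (3.58.1, R 4.3.3; moderated variance with a trend, no covariate, two-sided) on log2(FPKM + 1). The 12110 genes whose mean over the libraries was 1 FPKM or more were tested and adjusted together by Benjamini-Hochberg, at 0.05. Ratios used an exact permutation test. Positions come from GENCODE M21 and start sites from RefSeq, both GRCm38. Depth was estimated from the first step of low values in genes with a single exon, within a fixed window, and the fragments behind a member from that depth and its length. Among 12110 genes simulated for this comparison, 50 were given a change of each planted size. A planted 1.25-fold change was called in 52% of its 50 genes, and a 2-fold change in 96%. These changes were planted on the log2(FPKM + 1) scale, so recovery of the same fold in FPKM is overstated for low genes. Recovery where 58.6% of tested genes pass, as in the real data, was not tested. Alternatives were other scalings, expression minimums, pseudocounts and variance settings, each library left out and a replicate block.

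Members, lists and tests were chosen with earlier results of these data known. Beside the members, up to 4 genes with the smallest p of each list are named, with those that moved against most of it. Marker genes are named by level, except HSC markers and C1qa, C1qb, C1qc and Mertk, named with their values known. A gene that this rule names is not reported here. Protein sequences were not used here.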

Additional observations from a re-analysis of the deposited data

How the results depend on the processing

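None of the 9 tested members reversed under any alternative tried. Of 140 recomputed member changes, 10 lost the call, and all 10 concern Il1rn, Il18, Il1r1 or Casp1. With no expression minimum, 3 members were higher and 6 lower, as in the main comparison. Under quantile normalization 1 member was higher, and with a minimum of 5 FPKM 1 of the 5 members left to test was higher, since Il18 and Il1r1 lie below it. Over all genes, a minimum of 5 FPKM left 1792 higher genes, with fewer tested. Scaling without immunoglobulin genes gave 4928 higher and 2126 lower genes, and upper-quartile scaling gave 2400 lower genes; the cause was not tested. Scaling without immunoglobulin genes weighted by exon length, chosen after seeing the data, gave 3927 higher and 3001 lower genes.

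With 1 library left out, 2 to 3 members were higher and 5 to 6 lower, and over all genes 2716 to 2922 were higher and 3583 to 3693 lower. Same-numbered libraries did not deviate together (correlations of -0.09, -0.004 and -0.03 of their deviations from group means), so the numbers were not taken to pair them; with the replicate number as a block 2856 genes were higher and 3782 lower, and 3 members were higher and 6 lower. Depth limits Il1a and Il18 most.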
